A study of Mus musculus with 6 samples.

Results

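A set of 40 genes known to be switched on by type I interferon was followed through 6 mouse RNA sequencing libraries, 3 labelled WT and 3 labelled KO. The set was named by gene symbol: the factors that carry the interferon signal to DNA, the sensors of foreign RNA and DNA, the oligoadenylate synthetases, the antiviral effectors, and the proteins around ISG15. Of the 40, 38 were found under the same spelling and Ddx58 was found under its newer symbol Rigi, so 39 of the 21399 genes in the tables were members. Mx1 was not analysed here. A gene was tested where its FPKM averaged 1 or more across libraries, which was so for all 39 and for 10732 genes in all. FPKM is the number of sequenced fragments divided by transcript length and by the depth of the library.

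Per the series' text, primary microglia of CD45.2 mice, either WT or KO, went through oxygen-glucose deprivation (OGD, a culture model of ischaemia). Peritoneal macrophages of CD45.1 mice were added when oxygen was given back, and all 6 libraries share both steps. The text names the sequenced cells CD45.1+ microglia, although CD45.1 is its mark for the added macrophages, and the source label of every sample lists both cell types. Not named in the labels are the gene that was deleted, the age or sex of the mice, the strain beyond the CD45 form, or any promoter or Cre line and whether replicates are separate cultures or mice. All p-values below therefore reflect library-to-library spread alone, part or all of which may be technical. PPARα, a nuclear receptor, is named in the title of the series. Its gene Ppara had 11, 1 and 2 reads in the WT libraries and 13, 23 and 10 in the KO libraries (3 values are always those of replicates 1, 2 and 3 in that order), so its level was not lower in the libraries labelled KO. No exon of it could be examined in these gene-level values, and WT and KO below stand for the libraries so labelled.

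Type I interferons are secreted proteins that bind the receptor pair IFNAR1 and IFNAR2. The receptor's kinases activate STAT2, which enters the complex ISGF3 together with IRF9, and ISGF3 binds a DNA element, the interferon-stimulated response element (ISRE), near the start of its target genes. Among these targets are IRF7, which raises interferon production further, sensors that detect viral RNA, and enzymes and membrane proteins that block viral replication. Both microglia and macrophages are known to carry this response.

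The promoters of several members hold the element through which ISGF3 acts, and they are shown first because the values that follow are those of the genes behind them. Sequences of 250 bases before and 50 after each gene's start came from RefSeq on GRCm38.p6, the assembly also called mm10, and 30 of the members had an entry. The ISRE core searched was GAAA, 2 bases of any kind, then GAAA, on both strands. It was present in 15 of 30 members, or 50%, and in 3.99% of 27025 genes in the same table. Below are stretches around the cores of 6 members, on which results below turn, 5′ to 3′ on the gene's strand, with the cores in capitals. On the opposite strand a core reads TTTC, 2 bases, TTTC.

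Isg15, a ubiquitin-like protein attached to other proteins during the antiviral response, has 3 cores that overlap one another at chr4:156200855-156200916, minus strand, from 98 to 37 bases before the start.
Isg15: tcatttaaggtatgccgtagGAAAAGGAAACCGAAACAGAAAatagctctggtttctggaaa
Ifit1 and Ifit3, members of a family that recognises viral RNA or blocks its translation, have 2 cores each, at chr19:34640765-34640833 and chr19:34583353-34583436, plus strand.
Ifit1: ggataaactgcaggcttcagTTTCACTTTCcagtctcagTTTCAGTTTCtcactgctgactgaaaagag
Ifit3: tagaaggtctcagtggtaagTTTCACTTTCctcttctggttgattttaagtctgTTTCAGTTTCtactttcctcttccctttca
Oas1a, which makes the 2′-5′-linked oligoadenylates that activate RNase L, has 2 overlapping cores at chr5:120907526-120907565, minus strand.
Oas1a: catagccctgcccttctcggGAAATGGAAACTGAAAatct
Bst2 (tetherin), which holds budding virus at the cell surface, has 2 overlapping cores at chr8:71537567-71537622, minus strand.
Bst2: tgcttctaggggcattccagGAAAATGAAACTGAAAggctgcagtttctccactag
Ifitm2, a membrane protein that hinders the entry of viruses from endosomes, has 1 core at chr7:140955978-140956027, minus strand.
Ifitm2: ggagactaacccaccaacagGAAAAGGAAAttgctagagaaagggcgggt

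The other 9 members with an ISRE core in the window were Ifitm3, Trim30a, Eif2ak2, Ifih1, Oas3, Rigi, Rsad2, Slfn5 and Stat2. A second element, the core of the gamma-activated site (GAS), was searched as TTC, 3 bases of any kind, then GAA. It was present in 8 of the 30 members, 26.7%, against 9.55% of genes, and in Bst2 and Ifitm3 it overlapped an ISRE core. A match of letters is a description of the window and not a measured binding site.

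**Figure D1:**
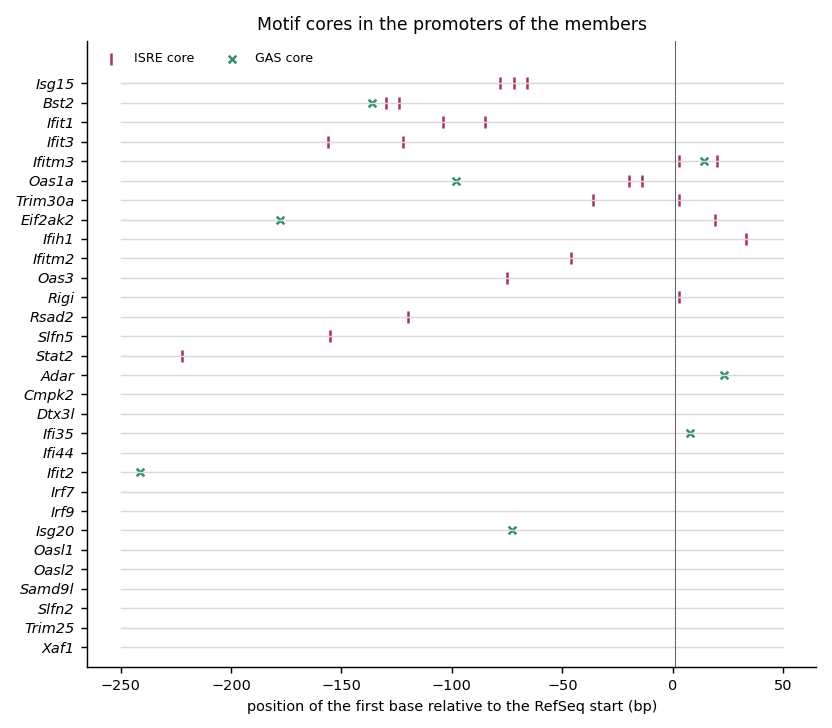
Position of each ISRE core (bars) and GAS core (crosses), in bases from the RefSeq start (the vertical line), in the promoters of the 30 members with an entry. Isg15 holds 3 ISRE cores, and 15 members hold at least 1.

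The recovered read totals lay between 34542822 and 38092819 per library. The libraries differed in their macrophage RNA. The summed FPKM of 10 core macrophage genes lay between 1269 and 3717 in WT and between 4718 and 10860 in KO, and all 10 had a higher mean in KO. Most of each sum was Lyz2, at 979 to 2947 FPKM in WT and 3548 to 8717 in KO. All KO libraries were above all WT libraries for 8 of the 10, where 9.75% of all genes had that pattern. Of 14 peritoneal macrophage genes, 12 of the 13 tested had a higher mean in KO, with summed FPKM of 469 to 1387 in WT and 2578 to 3490 in KO. Fn1 and Thbs1 together were most of each of these sums, and 10 of the 13 had all KO libraries above all WT libraries. The defining microglial genes were low in every library: Tmem119 was at 0.203 to 1.04 FPKM in WT and 2.14 to 2.43 in KO, P2ry12 at 1.09 or less, and Sall1 at 0.152 or less with no reads in WT replicate 3 and KO replicates 2 and 3. Genes of B cells were abundant, with sums over 10 genes of 4741 to 5435 FPKM in WT and 4186 to 4586 in KO. All 9 tested T and NK cell genes had a lower mean in KO, with sums over 10 genes of 176 to 213 FPKM in WT and 140 to 165 in KO. Mast cell genes varied widely within each group, with sums over 6 genes of 10.35, 558 and 253 FPKM for WT and 461, 468 and 107 for KO, so WT replicate 1, where most members were highest within WT, stood apart as the lowest. The astrocyte gene Gfap had 724 and 738 reads in WT replicates 1 and 2, 1 in WT replicate 3 and 20 to 62 in the KO libraries. The part of these cells in the members' differences was not tested. In such bulk libraries, fewer cells of a type and less RNA per cell cannot be told apart.

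No member passed the test between KO and WT. The test was limma on log2(FPKM + 1) with Benjamini-Hochberg adjustment at 0.05 over 10732 genes, which called 0.028% of genes higher in KO and 0.0% lower, or 3 and 0 genes. Without WT replicate 2 it called 538 of 10732 genes, 500 higher and 38 lower, and 2 of 39 members. The members' share was then near that of all genes. Members were mostly a little lower in KO: 28 of 39 had a negative log2 difference and 11 a positive one, 28.2% positive against 35.4% of all genes. The median member difference was -0.18, against -0.06 over all genes, with a range from -0.82 for Ifit3 to 1.67 for Ifitm2. At an unadjusted limma p under 0.05, 4 members were higher, Ifitm2, Ifitm3, Ifi204 and Ifi44, and 3 were lower, Stat2, Samd9l and Xaf1, where 8.86% and 8.21% of all genes were. Ifi44 averaged 0.694 FPKM in WT and 1.33 in KO, so it reached the mean needed for testing only through the KO libraries. Its higher level in KO is therefore partly a condition of its being tested. Limma's voom on the recovered reads also called 0 members, with 7 at an unadjusted p under 0.05, or 17.9% of members against 17% of all genes. Without KO replicate 3 or WT replicate 1 the median member difference moved to 0.0027 and 0.075, so its sign rests on those libraries.

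The groups did not overlap for 7 members. The KO libraries were all higher for Ifitm2 and Ifitm3, where 9.75% of all genes had that pattern, and all lower for Irf9, Stat2, Samd9l, Adar and Xaf1, where 15.2% did. The members' shares, 2 and 5 of 39, were near these. Levels per length ran from 302 FPKM for Ifitm3, 237 for Ifi27l2a and 237 for Slfn2 as means over 6 libraries, down to 3.42 for Rsad2 and 1.01 for Ifi44.

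The 3 factors of the interferon signal all had a negative difference, with a median of -0.30. Stat2, the subunit that brings the activation domain to ISGF3, was at 50.6, 38.4 and 37.8 FPKM for WT and at 31.6, 35.9 and 28.9 for KO. Every KO library was below every WT library. The means were 42.3 ± 7.26 (SD, n = 3) and 32.1 ± 3.54 (SD, n = 3), a log2 difference of -0.38 (95% interval -0.70 to -0.06, limma adjusted p = 0.23). Irf9, the DNA-binding subunit, was at 78.6, 66.0 and 60.9 FPKM in WT and 60.2, 58.7 and 47.5 in KO, a log2 difference of -0.30 (limma adjusted p = 0.30). The highest KO library was only just under the lowest WT library, and reads of Irf9 and of its neighbour Rnf31 cannot be told apart where they overlap. Irf7, the factor that amplifies interferon production, was at 146, 109 and 51.2 FPKM in WT and at 144, 96.9 and 52.3 in KO. Each replicate 1 was near the other and each replicate 3 was lowest, so the groups covered the same range, with a log2 difference of -0.05 (95% interval -1.11 to 1.01, limma adjusted p = 0.96).

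Among the 6 sensors, 2 had positive and 4 negative differences, with a median of -0.12. Ifi204, a member of the IFI200 family that senses DNA, was at 11.05, 16.2 and 3.95 FPKM in WT and at 32.5, 23.9 and 13.8 in KO. WT replicate 2 was above KO replicate 3, so the groups overlapped, but the 2 highest libraries were KO. Its means, 10.4 ± 6.16 and 23.4 ± 9.34 (SD, n = 3), gave 2.25-fold and a log2 difference of 1.196 (95% interval 0.09 to 2.30, limma adjusted p = 0.26). Reads of near-identical genes of its family may be shared. The RNA helicases were nearer to equal in the groups. Ifih1 (MDA5), which detects long double-stranded RNA, averaged 3.70 ± 1.43 FPKM (SD, n = 3) for WT and 4.13 ± 1.32 for KO, and Rigi, which detects RNA ends, at 41.5 ± 7.92 and 36.5 ± 3.36. Dhx58 (LGP2), which modulates both, had a log2 difference of -0.08. Zbp1, a sensor of Z-form nucleic acid, and Eif2ak2 (PKR), which stops translation when it binds double-stranded RNA, had log2 differences of -0.30 and -0.18, and the limma adjusted p was 0.57 or more for these 5 genes.

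The 5 oligoadenylate synthetase genes had 3 positive and 2 negative differences, with a median of 0.04. Oas1a was at 26.7, 27.4 and 12.5 FPKM in WT and at 40.6, 30.6 and 19.7 in KO. In both groups replicate 3 was lowest, and KO replicate 3 was under WT replicates 1 and 2. The means of 22.2 ± 8.40 and 30.3 ± 10.4 (SD, n = 3) differed by 0.45 on the log2 scale (limma adjusted p = 0.54). Oasl2, an OAS-like gene, was at 28.5, 24.3 and 11.6 FPKM in WT and 39.4, 29.2 and 13.4 in KO, and Oas3 was at 26.3, 15.9 and 7.39 in WT and 19.5, 19.3 and 9.01 in KO. For each gene replicate 3 was lowest in both groups. Oas2 and Oasl1 had log2 differences of -0.47 and -0.48 (limma adjusted p of 0.46 and 0.50).

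The interferon-induced transmembrane genes Ifitm2 and Ifitm3 stood at the top of the list. Ifitm2 was at 24.0, 45.9 and 20.4 FPKM for WT and at 128, 82.6 and 74.7 for KO. All KO libraries were above all WT libraries. The means were 30.1 ± 13.8 and 94.99 ± 28.55 (SD, n = 3), 3.15-fold, a log2 difference of 1.67 (SE 0.31, 95% interval 0.94 to 2.41, limma adjusted p = 0.11). Ifitm3, the best-studied member of that family in blocking virus entry, was at 155, 268 and 72.5 FPKM in WT and at 657, 387 and 273 in KO. The lowest KO library was just above the highest WT library. The means were 165 ± 98.2 and 439 ± 197 (SD, n = 3), 2.66-fold, a log2 difference of 1.5 (SE 0.49, limma adjusted p = 0.20). WT replicate 2 decided these 2 calls: without it, the limma adjusted p was 0.0097 for Ifitm2 and 0.049 for Ifitm3. That fit called 538 of 10732 genes in all. Ifitm2 (chromosome 7, 140954837 to 140955987) and Ifitm3 (chromosome 7, 141009586 to 141010770) lie on the minus strand of mm10 in the same cluster, and reads shared between such close copies are uncertain.

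The other 11 tested effectors had differences of -0.82 to 0.17. Ifit3 was at 52.5, 21.3 and 15.5 FPKM in WT and at 22.3, 17.1 and 7.48 in KO. WT replicate 1 was more than the sum of any 2 KO libraries, and the other libraries overlapped. Its means of 29.8 ± 19.9 and 15.6 ± 7.52 (SD, n = 3) gave the largest negative log2 difference of the members, -0.82 (95% interval -1.99 to 0.34, limma adjusted p = 0.45). Ifit1 was at 16.9, 8.66 and 5.17 FPKM for WT and 12.1, 9.83 and 4.14 for KO, and replicate 1 was highest and replicate 3 lowest in both groups. Ifit2 was at 19.9, 7.10 and 8.82 for WT and 8.71, 7.70 and 4.96 for KO, a log2 difference of -0.57 (limma adjusted p = 0.45). WT replicate 1 again stood above the other libraries of Ifit1 and Ifit2, as it did for Ifit3, whose near-identical copy Ifit3b may share its reads. Rsad2 (viperin), which makes a chain-terminating nucleotide, was at 6.00, 2.70 and 1.76 FPKM in WT and 5.76, 3.25 and 1.05 in KO, and its neighbour Cmpk2, a nucleotide kinase, at 12.95, 6.69 and 4.79 and at 8.99, 6.67 and 3.81. In both genes replicate 1 was highest and replicate 3 lowest in each group. Bst2 was at 76.6, 79.8 and 46.0 FPKM in WT and 115, 69.2 and 51.0 in KO, a log2 difference of 0.17 (limma adjusted p = 0.80).

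Samd9l, an inhibitor of translation, was at 139, 89.2 and 96.9 FPKM in WT and at 69.7, 88.5 and 77.8 in KO, a log2 difference of -0.44 (limma adjusted p = 0.27). Its highest KO library was just under its lowest WT library. Adar, which edits adenosine to inosine in double-stranded RNA, was at 62.6, 46.8 and 46.6 in WT and 40.95, 46.2 and 35.3 in KO, a log2 difference of -0.34 (limma adjusted p = 0.30). Slfn2, a schlafen gene, had the narrowest range within WT of all members: WT libraries lay at 244, 246 and 237 FPKM and KO libraries at 269.9, 221 and 202. Slfn5 and the exonuclease gene Isg20 had log2 differences of -0.14 and -0.22.

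Isg15 itself was at 41.6, 29.2 and 12.9 FPKM for WT and at 47.6, 28.4 and 13.55 for KO. The 2 groups ran in parallel, and the highest library was 3.23 times the lowest in WT and 3.51 times in KO. The means of 27.9 ± 14.4 and 29.8 ± 17.1 (SD, n = 3) differed by 0.07 on the log2 scale (95% interval -1.13 to 1.28, limma adjusted p = 0.95). Usp18, which removes ISG15 from proteins and dampens the receptor, was at 21.2, 12.9 and 6.88 FPKM in WT and 18.6, 15.8 and 6.05 in KO. The remaining 5 genes of this group, the ubiquitin ligases Trim25 and Dtx3l, the TRIM protein gene Trim30a and the ADP-ribosyltransferases Parp9 and Parp14, had log2 differences of -0.37 to -0.05. Trim25, which activates RIG-I signalling, was at 65.9, 47.2 and 53.4 FPKM for WT and 50, 56.1 and 53.2 for KO, and Parp14 was at 37.2, 20.1 and 19.8 and at 21.9, 24.3 and 17.6. WT replicate 1 was the highest WT library for each of the 5. Parp9 and Dtx3l overlap on opposite strands, and without a stated strand setting their reads cannot be told apart.

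Of the remaining 5 members, Xaf1, which promotes apoptosis, was at 15.6, 11.1 and 9.59 FPKM in WT and at 9.07, 9.30 and 6.37 in KO. Every KO library was below every WT library, with a log2 difference of -0.49 (95% interval -0.95 to -0.04, limma adjusted p = 0.26). Ifi44 was the least abundant member, at 0.676, 1.01 and 0.397 FPKM in WT and 0.964, 1.30 and 1.73 in KO, from 40 to 178 reads. KO replicate 1 was under WT replicate 2, and the log2 difference was 0.46 (limma adjusted p = 0.25). Ifi27l2a, one of the 3 most abundant members, was at 326, 272 and 176 in WT and 286, 219 and 145 in KO. Rtp4, a chaperone of receptors, was at 27.5, 19.2 and 9.73 FPKM for WT and 31.4, 22.6 and 12.6 for KO, with replicate 1 highest and replicate 3 lowest in both groups. Rtp4 and Ifi35 had log2 differences of 0.25 and -0.21. In the mm10 annotation 17 members overlap another gene. Where the strands are opposite, such as Irf7 with Phrf1 and Adar with Chrnb2, their reads carry the same uncertainty of strand. For others, such as Irf9 with Rnf31, both genes lie on the same strand, and a strand setting would not separate their reads.

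**Figure D2:**
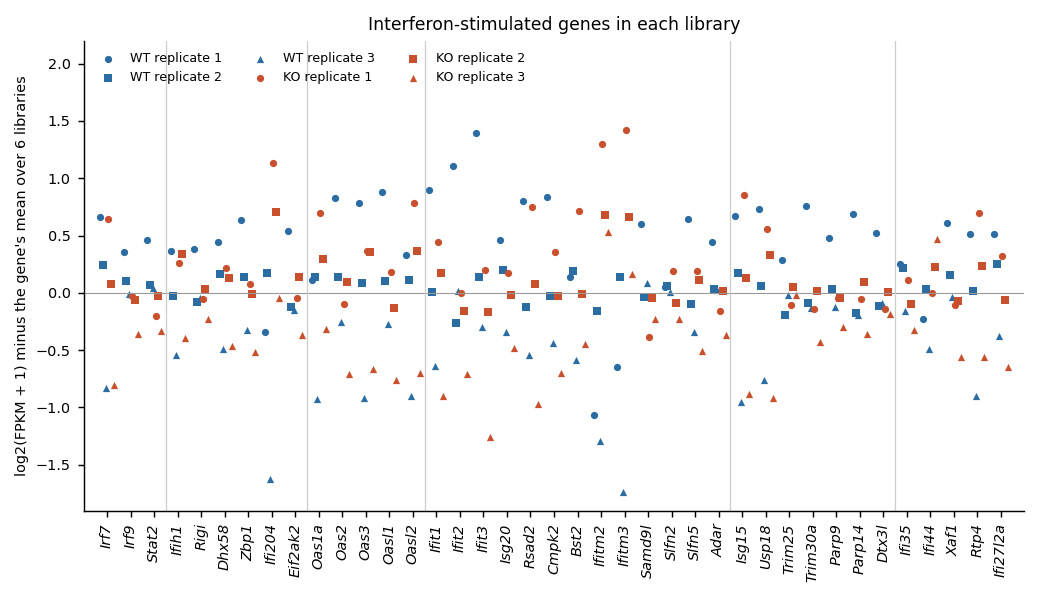
Each member's log2(FPKM + 1) in each of the 6 libraries, minus its mean over the 6, with members grouped by role between the vertical lines (blue, WT; red, KO; circle, square and triangle, replicates 1, 2 and 3). Replicate 3 (triangles) lies lowest within both groups for 33 of 39 members, against 13.45% of all genes. All KO libraries lie above all WT libraries for Ifitm2 and Ifitm3 (9.75% of all genes). They lie below for Irf9, Stat2, Samd9l, Adar and Xaf1 (15.2% of all genes).

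Most members differed more among libraries of 1 group than between the groups. For 30 of 39 members, 76.9%, the difference between group means was smaller than the range within either group, as it was for 59.6% of all genes. The median log2 range of a member was 0.94 within WT and 0.70 within KO, against 0.29 and 0.20 for all genes, while the median absolute difference between the groups was 0.25 for members and 0.13 for all genes. WT replicate 3 was the lowest WT library for 34 members (87.2%, all genes 31.4%) and KO replicate 3 the lowest KO library for 36 (92.3%, all genes 26.5%). WT replicate 1 was the highest WT library for 32 (82.1%, all genes 26.1%) and KO replicate 1 the highest KO library for 26 (66.7%, all genes 33.4%). Most members thus shared 1 order of libraries within a group, as the plot of each member by library shows.

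In summed FPKM the 39 members stood at 2302, 1933 and 1363 for WT and 2571, 2006 and 1464 for KO, and the groups overlapped. With Ifitm2, Ifitm3 and Ifi204 left out, a choice made after their values were seen, the sums were 2111, 1603 and 1266 in WT and 1754, 1512 and 1102 in KO, and the median log2 difference of the other 36 was -0.20.

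The macrophage level of a library was taken as the mean log2(FPKM + 1) of 3 genes: Adgre1 (F4/80), Csf1r (the receptor for the growth factor of macrophages) and Lyz2 (lysozyme). Adgre1 was at 68.6, 116 and 52.4 FPKM for WT and 401, 232 and 176 for KO. The macrophage level was 7.41, 8.33 and 6.90 for WT and 9.92, 9.18 and 8.86 for KO. Every KO library was above every WT library. The means of 7.55 ± 0.72 and 9.32 ± 0.54 (SD, n = 3) differed by 1.775, with an exact two-sided permutation p of 0.1, the smallest that 3 against 3 allows. Within WT, replicate 2 had the highest macrophage level and replicate 3 the lowest. Within KO, replicate 1 had the highest and replicate 3 the lowest, as for most members.

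Ifitm2 and Ifitm3 had the same order of all 6 libraries as the macrophage level. These 2 of 39 members are 5.13%, near the 3.66% of all genes with that order. Ifi204 differed from that order only in KO replicate 3, which was below WT replicate 2. The part of macrophage content in these 3 differences was not tested beyond the fit that follows. Isg15 and Irf7 had WT replicate 1 near the top, although its macrophage level was the second lowest.

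**Figure D3:**
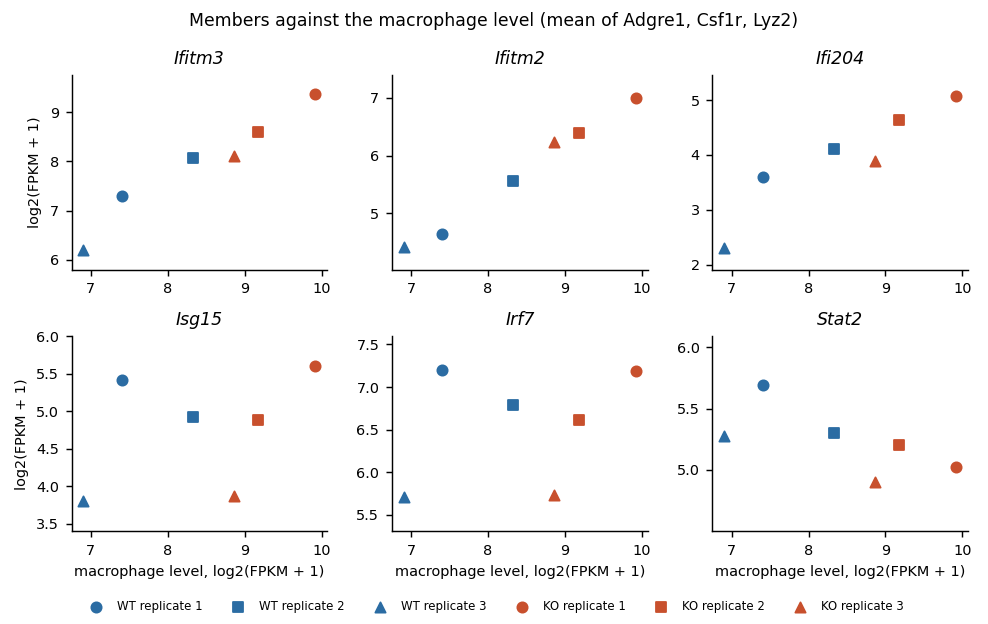
Level of 6 members, as log2(FPKM + 1), against the macrophage level of each library, the mean log2(FPKM + 1) of Adgre1, Csf1r and Lyz2 (blue, WT; red, KO; the symbol is the replicate). Ifitm2 and Ifitm3 have the same order of the 6 libraries as the macrophage level, as 3.66% of all genes do. Isg15 and Irf7 do not, and all KO libraries of Stat2 are below all WT libraries.

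With the macrophage level as a covariate in the same fit, the fitted difference was lower for 33 of 39 members and higher for 6, which were Samd9l, Trim25, Dtx3l, Rigi, Ifit2 and Stat2. Limma called 0 members and 0.0% of genes. At an unadjusted p under 0.05, 6 members were lower and 0 higher, while 6.08% of all genes were lower and 6.62% higher. The fitted difference at equal macrophage level was negative for 36 of 39 members, 92.3%, against 53.8% of all genes, and its median was -0.78, against -0.03. Of the members, 9 turned from positive to negative, among them Ifitm3, Ifi204, Isg15, Oas1a and Bst2, and Trim25 turned from negative to positive. Positive at equal level were Ifitm2, Ifi44 and Trim25. The macrophage levels of the groups did not overlap, so the value at equal level lies outside what either group's libraries covered. Leaving out WT replicate 2 moved the median to -1.71 and leaving out KO replicate 3 moved it to -0.37.

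Ifitm3 went from 1.5 to -0.67 (95% interval -1.27 to -0.06) and Ifi204 from 1.196 to -0.79 (95% interval -1.72 to 0.14), while Ifitm2 went from 1.67 to 0.27 (95% interval -0.09 to 0.63). Irf7 went from -0.05 to -1.55 (95% interval -3.07 to -0.03) and Isg15 from 0.07 to -1.61 (95% interval -3.35 to 0.12). Stat2 was at -0.37 with a wider interval, -1.0 to 0.26. The intervals of Irf7, Isg20, Bst2, Ifitm3, Ifi35 and Ifi27l2a were wholly below 0, and none was wholly above. The lowest limma adjusted p of a member at equal level was 0.376.

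The slope on the macrophage level, the change of log2(FPKM + 1) for each unit of it within groups, was positive for 33 of 39 members, 84.6%, against 47.5% of all genes. These are the 33 members whose fitted difference was lower at equal macrophage level. The counts are the same result, because in this fit that shift equals the slope times the group difference in macrophage level. The slope reached 0.5 or more for 15 members, 38.5%, against 4.03% of all genes. It was 1.22 for Ifitm3 (SE 0.12), 1.12 for Ifi204 (SE 0.19), 0.95 for Isg15 (SE 0.36), 0.84 for Irf7 (SE 0.31) and 0.79 for Ifitm2 (SE 0.07). Replicate 3 had the lowest macrophage level in both groups and was lowest in both for 33 of 39 members (13.45% of all genes). A slope on the macrophage level and another property of those libraries cannot be told apart. The slope was near 0 for Adar, at 0.011, and for Eif2ak2, at 0.029. The median slope was 0.58 for the 15 members with an ISRE core in the window shown above and 0.16 for the 15 without. The slopes of the 2 sets overlapped, from -0.014 for Rigi to 1.22 for Ifitm3 with a core and from -0.17 for Samd9l to 0.84 for Irf7 without. The median differences between KO and WT were -0.09 with a core and -0.22 without. Members without a promoter entry are in neither set, and a link between core and slope was not tested.

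**Figure D4:**
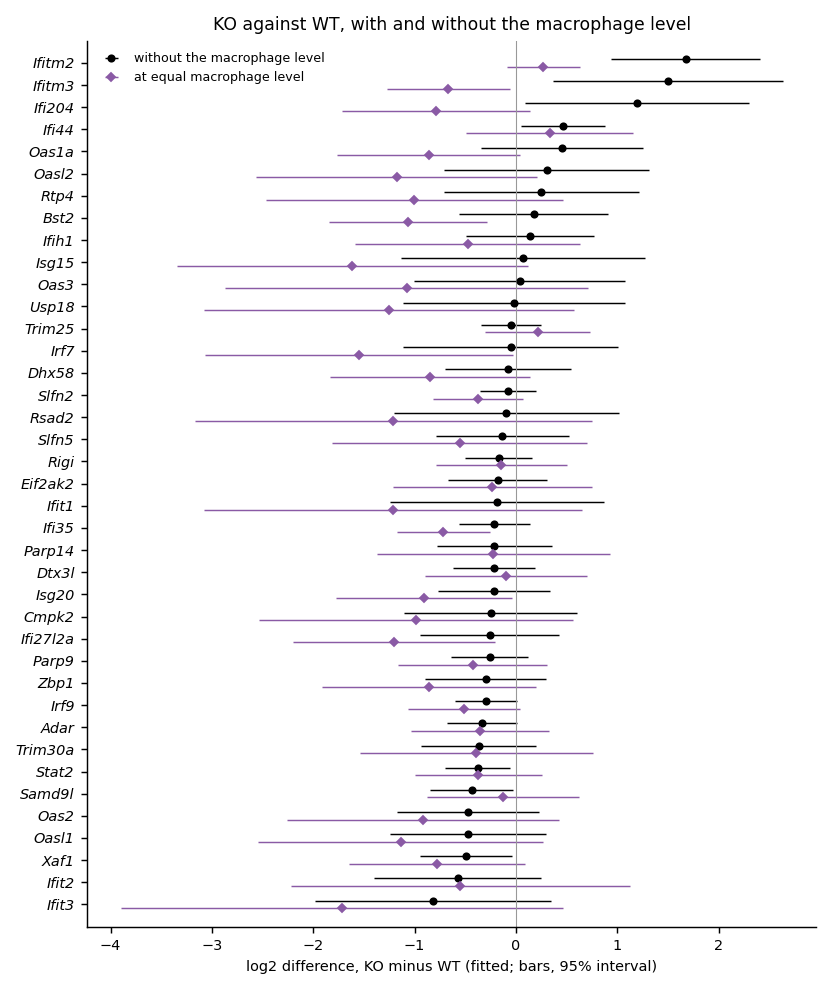
Log2 difference KO minus WT of each member with its 95% interval, fitted without the macrophage level (black circles) and at equal macrophage level (purple diamonds), ordered by the former. Ifitm2, Ifitm3 and Ifi204 lie above 1 without it, and 36 of 39 members lie below 0 at equal level.

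The rest of the pathway was read from lists of genes. Of 11 interferon ligand genes, 2 were in the tables and neither reached a mean of 1 FPKM, with Ifng, the type II interferon, at 0.108 to 0.523 FPKM. Of 18 receptor and signalling genes, all tested, 5 had positive and 13 negative differences, with a median of -0.08 and none called. The type I receptor chain Ifnar2 was at 9.44, 10.8 and 8.29 FPKM in WT and 16.6, 13.9 and 12.8 in KO, and its partner Ifnar1 at 25.1, 25.5 and 26.7 and at 29.35, 30.8 and 30.6. All KO libraries of both chains were above all WT libraries, with log2 differences of 0.55 and 0.22 (limma adjusted p of 0.12 and 0.20). These were the only 2 of the 18 with that pattern, which 9.75% of all genes had. For 3 of the 18 all KO libraries were below all WT libraries, as for 15.2% of all genes, so both counts were near the shares of all genes. At equal macrophage level the log2 differences were 0.07 for Ifnar2 and 0.30 for Ifnar1.

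Of 15 tested adaptors that induce interferon, 7 were positive and 8 negative. Ikbke, a kinase that activates IRF3, was at 15.2 ± 1.78 and 20.5 ± 1.81 FPKM (SD, n = 3), and Sting1, the adaptor of cytosolic DNA sensing, at 58.5 ± 5.79 and 48.4 ± 3.47 (limma adjusted p of 0.14 and 0.25). Of 17 tested genes linked to interferon gamma, 3 were positive and 14 negative, and the 2 with the smallest p were Gbp4, a guanylate-binding protein gene, with a log2 difference of -0.40, and Tap2, a peptide transporter gene, with -0.22.

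Another 44 tested interferon-stimulated genes had 13 positive and 31 negative differences with a median of -0.22, and none was called. Their median log2 range within WT was 0.48, and WT replicate 1 was highest for 32 of the 44 and WT replicate 3 lowest for 32. The difference between group means was smaller than the range within either group for 18 of the 44, 40.9%, a lower share than that of the members or of all genes given above. At an unadjusted limma p under 0.05, 15 of the 44 were lower in KO and 3 higher, where 8.21% and 8.86% of all genes were. The KO libraries were all below the WT libraries for 14 of the 44, where 15.2% of all genes had that pattern. They were all above for 3 of the 44, where 9.75% of all genes were. The 2 with the smallest p were Trim34a, at 69.4 ± 8.83 FPKM (SD, n = 3) for WT and 50 ± 2.27 for KO, a log2 difference of -0.46 (limma adjusted p = 0.12), and Ms4a6d, a membrane protein gene, at 47.6 ± 27.2 and 133 ± 36.8. At equal macrophage level 42 of the 44 were negative, with a median of -0.34.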

How the data were processed

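Total RNA was extracted with TRIzol and sequenced after library preparation with the VAHTS Universal V6 kit, per the labels' protocols. The authors deposited 1 table of FPKM per library. Per the submitters' processing notes, mm10 was the genome build. Aligner, counter, annotation and strand setting were not given in the sources used here. FPKM values were whole multiples of a read's worth for 100.0% of the 10732 genes tested, within 0.002 reads, which gave reads up to a factor common to all 6 libraries of a gene. At 40 reads, the lowest for a member, counting error is not small.

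Groups came from the sample titles. Genes averaging 1 FPKM or more were fitted on log2(FPKM + 1), a pseudocount of 1, by limma 3.58.1 under R 4.3.3 (moderated by eBayes, with trend), adjusted over all tested genes, without and with the macrophage level as a covariate. Fold changes on this scale understate those of low genes. Scripts were tested on simulated data. The members and lists were chosen with earlier results of these data known. The rule for named genes was all members, plus the 2 genes with the smallest p of each pathway list. Positions are from GENCODE, an annotation of mm10. Alternatives were pseudocounts of 0.1 and 5, filters, scaling, quantile normalization, voom, a replicate block, 10 macrophage genes for the level and leaving out each library. The replicate numbers were not used as pairs. Python 3.11.15, pandas 2.3.3, numpy 2.4.6 and matplotlib 3.10.9 were used.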

Additional observations from a re-analysis of the deposited data

How the results depend on the processing

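Of all genes, 3 were called, against 6 with a pseudocount of 5, 0 without a filter, 5 with voom, and 0 to 538 with 1 library left out, 538 being without WT replicate 2. Members called were 0 under every alternative other than that library, so leaving out 1 library gave 0 to 2. Without that library 2 of 39 members passed, beside 538 of 10732 genes. Median-of-ratios scaling turned Irf7 (0.011), Usp18 (0.037) and Trim25 (0.0125). With 1 library left out the median member difference ranged from -0.39 to 0.075, the median at equal macrophage level from -1.71 to -0.37, and the difference in macrophage level from 1.45 to 2.17.

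The difference changed sign for 18 members when 1 library was left out, with ranges on the log2 scale of Ifit1 -0.55 to 0.22, Isg15 -0.39 to 0.53, Oas3 -0.42 to 0.43, Oasl2 -0.071 to 0.73, Rsad2 -0.49 to 0.37, Cmpk2 -0.53 to 0.10, Irf7 -0.48 to 0.34, Ifih1 -0.097 to 0.37, Dhx58 -0.34 to 0.13, Usp18 -0.41 to 0.43, Bst2 -0.14 to 0.44, Rtp4 -0.14 to 0.59, Parp14 -0.36 to 0.075, Trim25 -0.16 to 0.079, Eif2ak2 -0.30 to 0.043, Ifi27l2a -0.51 to 0.0027, Slfn2 -0.20 to 0.012 and Slfn5 -0.34 to 0.15. At equal macrophage level it did so for 9 members, with ranges of Ifit2 -2.72 to 0.11, Ifih1 -1.41 to 0.0021, Rigi -0.78 to 0.087, Ifi44 -0.096 to 1.15, Parp14 -1.37 to 0.16, Dtx3l -0.80 to 0.11, Trim25 -0.19 to 0.33, Eif2ak2 -1.18 to 0.17 and Samd9l -0.59 to 0.086. The cause was not tested.

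The replicate number as a block gave 11 genes and 0 members called, with 15 members (38.5%) at an unadjusted p under 0.05 against 7 (17.9%) without it, while the share of all genes was 14.1% with the block and 17.1% without. Deviations of libraries with the same number correlated at -0.21, -0.38 and 0.27 over all genes for numbers 1 to 3. Over the 39 members these correlations were 0.36, -0.49 and 0.85. Not every library correlated best with its own number, and the numbers were not taken as pairs.

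With 3 libraries a group, small differences in genes that vary as much as these are not detectable.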
